A study of Mus musculus with 6 samples.

Results

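Rab genes encode small GTPases that mark the membranes of the secretory and endocytic pathways. The members described here are all rows of the deposited expression table whose gene symbol is Rab followed by a number and at most a letter and a digit, 59 of 34652 genes. RNA came from 2 populations of macrophages that were sorted from cerebrospinal fluid in a mouse model of leptomeningeal metastasis, with 3 libraries of each. Both populations came from Cx3cr1CreER:mTmG mice that had received tamoxifen and, 12 days earlier, an inoculation of LLC-LeptoM cells, which are mouse lung carcinoma cells with a tropism for the leptomeninges. In these mice an inducible Cre is expressed from the Cx3cr1 locus and turns a membrane reporter from red to green, so the label depends on Cx3cr1 activity when tamoxifen is given. The dLAM group, labelled as resident macrophage, was gated on green fluorescence, CD45, CD11b and F4/80 in the absence of Ly6C. The Mono-MΦ group, labelled as monocyte-macrophage, mixed 2 gates of cells with no green fluorescence, one F4/80-positive and one Ly6C-positive with low F4/80. The comparison asks how Rab genes of each compartment differ between the resident cells and those derived from monocytes.

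A Rab protein cycles between a GDP-bound form in the cytosol and a GTP-bound form on a membrane. Exchange factors switch it on, GTPase-activating proteins switch it off, GDP dissociation inhibitors carry it through the cytosol, and effectors bind the active form to tether, move or fuse vesicles. Macrophages depend on this traffic for phagosome maturation, receptor recycling, antigen processing and the release of cytokines and granule contents.

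The estimated depth was between 1.23e+07 and 1.70e+07 fragments per library, so that 1 fragment of a gene with 2 kb of exon stands for between 0.0294 and 0.0407 FPKM, the length- and depth-scaled fragment count that the authors deposited. Markers of the named cells were checked first. All 12 border macrophage markers (Mrc1, Stab1, C1qa and others) were higher in dLAM libraries, with summed levels of 1314 to 1754 FPKM against 29.9 to 67.5 FPKM in Mono-MΦ libraries. Of 10 monocyte markers 9 were lower in dLAM libraries. Markers of other cells moved with the groups as well. In dLAM libraries 12 of 12 markers of T cells, 9 of 10 of dendritic cells and 4 of 5 tested ones of mast cells and basophils were higher, and 7 of 11 neutrophil markers were lower. The 5 tested NK cell markers were higher too, the NK cell list summing to 43.5 to 53.8 FPKM in dLAM and 2.17 to 8.65 FPKM in Mono-MΦ libraries. So were the 5 tested markers of B and plasma cells, whose list summed to 216 to 862 FPKM in dLAM and 13.8 to 67.9 FPKM in Mono-MΦ libraries. Markers were tested only with at least 1 FPKM in at least 3 libraries. Some met this through the dLAM libraries alone, among them Timd4, Folr2, Cd247, Cd8a, Xcr1, Ccr7, Cpa3, Mcpt4, Ncr1 and Cd79a. The filter fixed the direction of such markers in advance, so the counts of higher markers are not free of it. In sorted bulk RNA, fewer cells of a type and less RNA per cell cannot be told apart. Y-linked RNA was higher in dLAM library 3 and Mono-MΦ library 2 than in the other 4 libraries, with Ddx3y at 10.1 and 10.6 FPKM against 1.56 to 2.69 FPKM. Xist was lower in the same libraries, at 10.5 and 10.6 FPKM against 40.3 to 58.2 FPKM. Values within the 4 libraries low in Y-linked RNA are given where they change a result. Within them the T cell markers Trbc1 and Cd8a no longer passed (limma adjusted p = 0.081 and 0.084). The same held for the NK cell markers Ncr1 and Prf1 (0.051 and 0.077) and for Ighm (0.15). It also held for the neutrophil markers Camp and Ngp (0.17 and 0.23) and for S100a8 (0.22), which is on the monocyte and neutrophil lists.

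Of the Rab genes that passed the test with all 6 libraries, more were lower than higher in dLAM libraries. Of 59 members 38 reached 1 FPKM in at least 3 of the 6 libraries and were tested together with all genes at that level. In dLAM libraries 4 Rab genes were higher (Rab6b, Rab7b, Rab12 and Rab10) and 8 were lower (Rab44, Rab27a, Rab3d, Rab29, Rab11b, Rab32, Rab31 and Rab21) at a limma adjusted p under 0.05. That is 31.6% of the tested members, against 30.5% of the 11317 genes tested. By direction, 10.5% of the tested Rab genes were higher, against 19.9% of all genes tested, and 21.1% were lower, against 10.6%. The groups did not overlap for 22 of the 38 members, with 10 higher and 12 lower throughout in dLAM libraries. Over all genes tested this held for 46.2%, made up of 29.3% higher throughout and 16.9% lower. Sizes were modest: the median absolute log2 fold change was 0.25 for Rab genes and 0.28 for all genes tested, and only Rab44, Rab27a and Rab6b reached 1. Quantile normalization moved the all-gene median of the log2 fold changes by -0.10 and put the share of higher genes among all calls at 52.8%, against 65.1% as deposited. The share among Rab calls was 30.8% with it and 33.3% as deposited. The excess of lower genes was lost without Mono-MΦ library 2, where 6 were higher and 6 lower. Without dLAM library 2 the counts were 2 higher and 4 lower, without dLAM library 1 only 2 were higher, and without dLAM library 3 there were 5 lower. In the 4 libraries low in Y-linked RNA, 3 were higher and 4 lower, and 6 of the 12 calls were kept. With all 6 libraries and a term for Y-linked RNA added to the limma test, 5 were higher and 8 lower. All 12 calls were kept there.

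**Figure D1:**
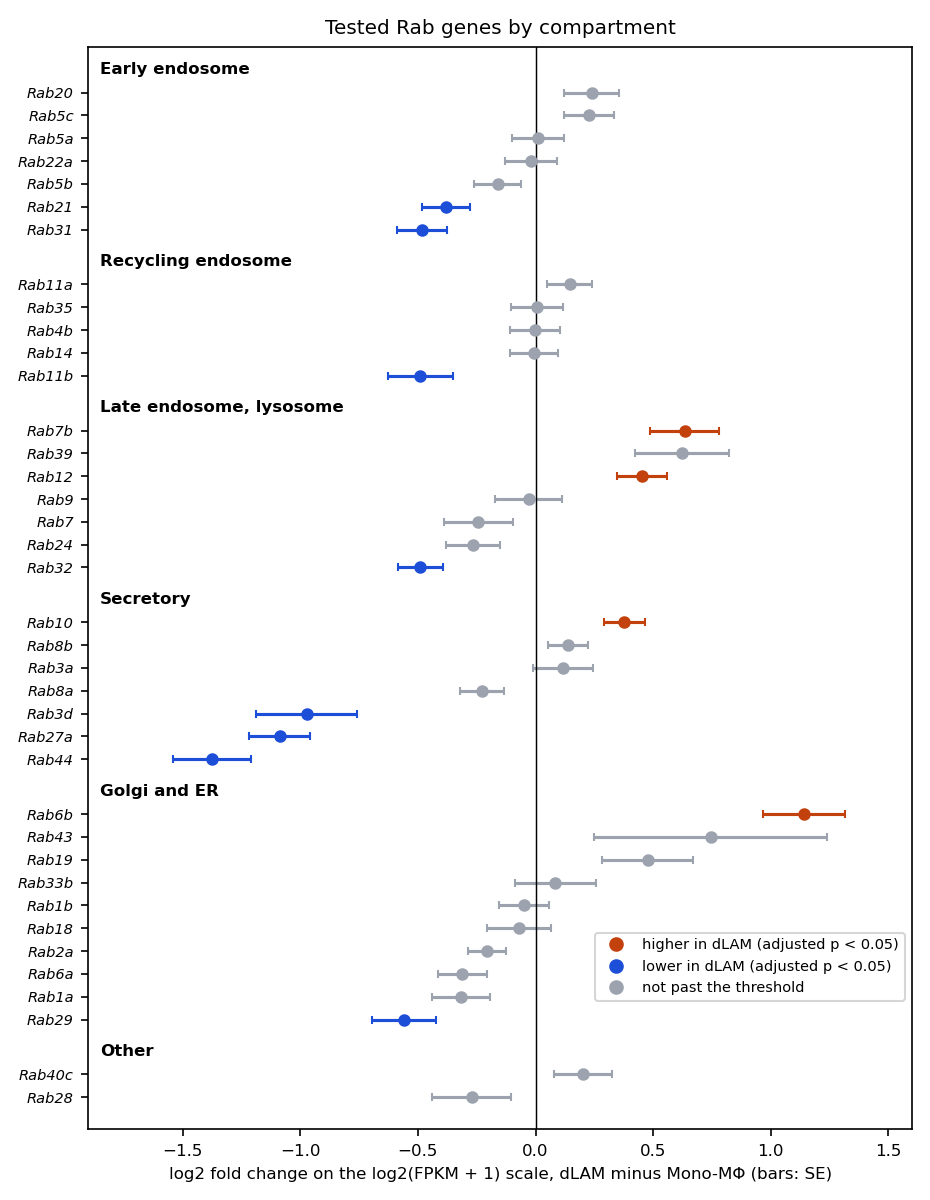
Difference in log2(FPKM + 1) for the 38 tested Rab genes, as log2 fold change, dLAM minus Mono-MΦ, grouped by compartment, with bars of 1 standard error. Red points are higher and blue points lower in dLAM libraries at an adjusted p under 0.05, and grey points did not pass. Rab44, Rab27a and Rab3d lie farthest to the left and Rab6b farthest to the right.

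The FPKM of the 59 members summed to 756, 706 and 764 in dLAM libraries and to 800, 830 and 795 in Mono-MΦ libraries. On the deposited scale each dLAM total thus lay below each Mono-MΦ total, but this order depends on the scale. The FPKM of all genes summed to 311902 in Mono-MΦ library 3 and to between 274850 and 290870 in the other libraries. As shares of those sums the Rab totals of the groups overlap. Of the summed FPKM of the 59 members, Golgi and ER members made up between 26.4% and 27.9% in dLAM libraries and between 26.3% and 27.1% in Mono-MΦ libraries. Late endosome and lysosome members held 18.2%, 18.3% and 18.0% in dLAM libraries, below the 19.5%, 19.0% and 18.7% in Mono-MΦ libraries. Recycling endosome members held 8.165%, 8.276% and 8.805%, above the 8.067%, 7.631% and 7.891% in Mono-MΦ libraries. Shares of the other compartments overlapped, and none of these shares was tested. The most abundant member was Rab8b, which moves vesicles from the Golgi to the plasma membrane, with a mean of 77.8 ± 2.65 FPKM in dLAM and 70.6 ± 1.36 FPKM in Mono-MΦ libraries (SD, n = 3 each). It was followed by Rab2a, Rab1b, Rab32 and Rab5c, with Rab5c still above 92.3% of the genes tested by mean FPKM.

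The largest falls were in Rab genes of regulated secretion. Of 13 secretory members 7 were tested, of which 3 were lower and 1 was higher in dLAM libraries (57.1% called, against 30.5% of all genes tested). Rab44 encodes a large atypical Rab with a calcium-binding EF-hand region that takes part in mast cell degranulation (chromosome 17, 29114145 to 29148980 of mm10). Its FPKM was 8.43, 6.6 and 8.87 in dLAM libraries 1 to 3, against 17.7, 25.1 and 24.4 in Mono-MΦ libraries 1 to 3. Every dLAM library lay below every Mono-MΦ library, by 2.81-fold in the means, with a log2 fold change of -1.38 (SE 0.17, adjusted p = 0.00079).

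Rab27a docks secretory granules and lysosome-related organelles at the plasma membrane and is mutated in Griscelli syndrome (chromosome 9, 73044854 to 73097629). It stood at 10.3, 8.37 and 11.6 FPKM in dLAM libraries and at 21.1, 22.1 and 23.9 FPKM in Mono-MΦ libraries. The groups were well apart, the Mono-MΦ mean being 2.22-fold the dLAM mean, and the log2 fold change was -1.09 (SE 0.13, adjusted p = 0.00074). Rab3d, which serves regulated exocytosis in gland and mast cells, had 3.17, 3.30 and 1.99 FPKM in dLAM libraries against 4.73, 6.74 and 8.12 FPKM in Mono-MΦ libraries. It was lower by a log2 fold change of -0.97 (SE 0.22, adjusted p = 0.012), a call that ended in the 4 libraries low in Y-linked RNA (adjusted p = 0.088).

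Granule markers moved in the same direction as these 3 genes. The neutrophil list (Elane, Mpo, Prtn3 and others) summed to between 711 and 966 FPKM in dLAM libraries and between 1369 and 7784 FPKM in Mono-MΦ libraries, with 7 of 11 markers lower and none at 0 throughout a group. The monocyte list summed to between 1603 and 2071 FPKM against 5124 to 12073 FPKM, with 9 of 10 markers lower. Of these markers Camp, Ngp and S100a8 no longer passed in the 4 libraries low in Y-linked RNA. The part of both lists in the lower Rab44, Rab27a and Rab3d was not tested. The mast cell and basophil list went the other way, at 43.7 to 77.5 FPKM in dLAM and 6.67 to 16.0 FPKM in Mono-MΦ libraries, with Cpa3, Mcpt4 and Fcer1a listed at 0 in every Mono-MΦ library.

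Rab10 was the secretory member that was higher. It carries vesicles with the glucose transporter Glut4 to the surface and delivers Toll-like receptor 4 in macrophages. Its FPKM was 38.2, 40.3 and 39.2 in dLAM libraries against 28.5, 30.3 and 31.2 in Mono-MΦ libraries, groups that did not overlap (log2 fold change 0.38, SE 0.09, adjusted p = 0.014). The call was lost without dLAM library 2 (adjusted p = 0.057) and in the 4 libraries low in Y-linked RNA (adjusted p = 0.081). The closely related exocytic pair Rab8a and Rab8b did not pass. Rab8a stood at 25.2 ± 2.07 FPKM in dLAM and 29.6 ± 0.879 in Mono-MΦ libraries (SD, n = 3 each). Rab3a, the synaptic vesicle member, was near the lower limit at 1.40 to 1.83 FPKM in dLAM and 1.38 to 1.55 FPKM in Mono-MΦ libraries. The median log2 fold change of the 7 tested secretory members was -0.23, against 0.06 for all genes tested. Over all 13 members, 6 of them at low values, the median difference was 0.12, so its sign depends on the members under the limit.

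**Figure D2:**
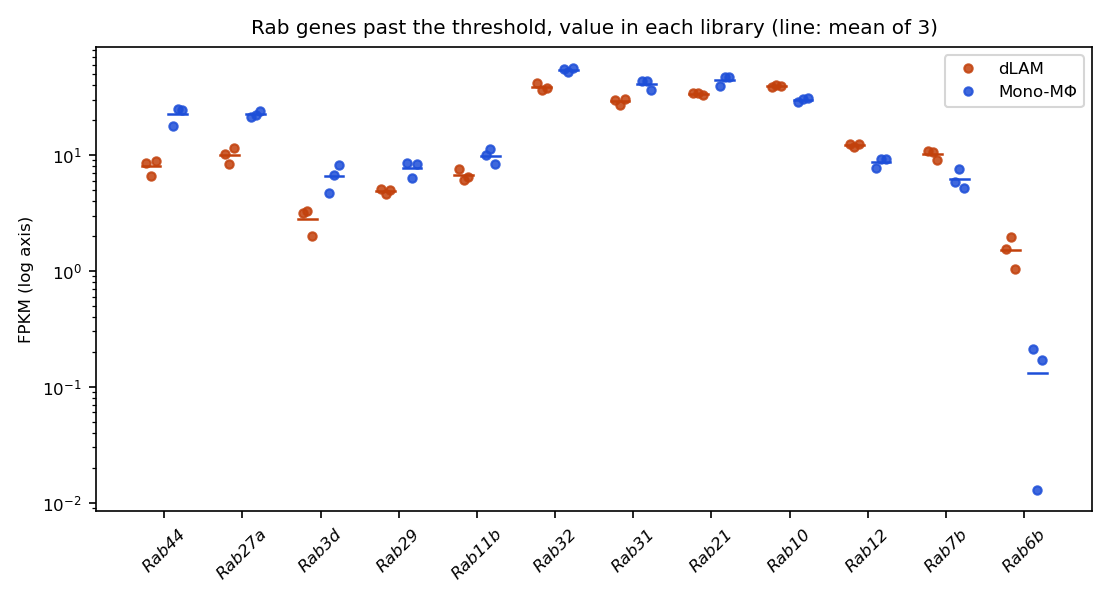
FPKM on a log axis in each library for the 12 Rab genes past the threshold, ordered by log2 fold change, with dLAM libraries in red left of Mono-MΦ libraries in blue and a line at the mean of 3. The groups do not overlap for any of these 12 genes, and Rab6b is the only one below 1 FPKM in Mono-MΦ libraries.

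RefSeq promoters of Rab genes with large changes are shown to put sequence beside these values. Of the 59 members 48 have an entry in the RefSeq table of build GRCm38.p6, and among those with an entry that passed the test the 2 with the largest fall and the 2 with the largest rise are printed. Rab44 and Rab7b have no entry. Each holds 250 bases before the annotated start and 50 after it, 300 in all, in the direction of transcription. Capitals mark matches, on either strand, to any of 5 motifs: GAGGAA (the core bound by PU.1, a factor of myeloid cells), GGGCGG (bound by Sp1), CACGTG (an E-box read by TFEB and related factors), TGANTCA (AP-1) and TATAAA. The Rab27a window with the farthest upstream start is chr9:73044560-73044859 (+ strand), that of Rab3d chr9:21918134-21918433 (- strand), that of Rab6b chr9:103111824-103112123 (+ strand) and that of Rab12 chr17:66519621-66519920 (- strand).
Rab27a: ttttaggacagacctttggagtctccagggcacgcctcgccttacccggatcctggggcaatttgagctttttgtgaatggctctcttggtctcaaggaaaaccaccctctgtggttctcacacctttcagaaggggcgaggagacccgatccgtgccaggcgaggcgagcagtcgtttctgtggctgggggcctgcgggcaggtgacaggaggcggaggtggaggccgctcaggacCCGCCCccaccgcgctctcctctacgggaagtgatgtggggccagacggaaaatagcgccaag
Rab3d: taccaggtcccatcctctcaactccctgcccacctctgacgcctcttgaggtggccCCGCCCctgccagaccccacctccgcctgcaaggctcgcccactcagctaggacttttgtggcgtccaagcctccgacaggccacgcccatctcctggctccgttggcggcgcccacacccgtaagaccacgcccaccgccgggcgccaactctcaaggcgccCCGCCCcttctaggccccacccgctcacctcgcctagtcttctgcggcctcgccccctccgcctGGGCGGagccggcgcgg
Rab6b: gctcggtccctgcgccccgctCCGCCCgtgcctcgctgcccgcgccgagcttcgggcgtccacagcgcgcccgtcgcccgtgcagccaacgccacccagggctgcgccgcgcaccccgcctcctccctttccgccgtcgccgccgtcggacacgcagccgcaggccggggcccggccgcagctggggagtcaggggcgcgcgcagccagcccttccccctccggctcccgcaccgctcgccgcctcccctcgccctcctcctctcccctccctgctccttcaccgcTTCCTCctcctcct
Rab12: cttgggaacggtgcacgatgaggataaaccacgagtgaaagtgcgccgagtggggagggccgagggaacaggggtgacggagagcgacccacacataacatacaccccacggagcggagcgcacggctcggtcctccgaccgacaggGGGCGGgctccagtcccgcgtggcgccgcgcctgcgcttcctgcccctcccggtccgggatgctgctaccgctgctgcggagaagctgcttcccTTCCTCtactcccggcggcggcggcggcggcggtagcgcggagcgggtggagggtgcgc
In these 4 windows only GGGCGG and GAGGAA were matched, and no 2 motifs shared a base. GGGCGG was present in each of the 4, once in Rab27a, Rab6b and Rab12 and 3 times in Rab3d, and GAGGAA once in Rab6b and once in Rab12. GGGCGG is found in 35.7% of all 32851 promoters of that table and in 68.3% of the 60 Rab promoters. GAGGAA is found in 28.3% of all promoters and 18.3% of Rab promoters. CACGTG was present in 2 of the 8 promoters that 7 of the lower Rab genes have in the table, in none of the 3 of Rab genes that were higher, and in 7.15% of all promoters. TGANTCA and TATAAA were in none of these 11 promoters, against 7.81% and 13.6% of all promoters. A match is a string of letters and says nothing of binding.

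Late endosome and lysosome members moved in both directions. Of 10 members 7 were tested, with 2 higher and 1 lower in dLAM libraries and a median log2 fold change of -0.03. The share called was 42.9%, against 30.5% of all genes tested. Rab7b directs Toll-like receptors 4 and 9 to lysosomes and moves cargo from endosomes to the Golgi (chromosome 1, 131688695 to 131715439). Its FPKM was 10.7, 10.6 and 8.97 in dLAM libraries against 5.88, 7.51 and 5.22 in Mono-MΦ libraries. No dLAM library was as low as any Mono-MΦ library, and the log2 fold change was 0.63 (SE 0.15, adjusted p = 0.014), a call lost without dLAM library 1 or 2 (highest adjusted p = 0.061). Rab12, which sends the transferrin receptor from recycling endosomes to lysosomes, stood at 12.4, 11.8 and 12.4 FPKM against 7.65, 9.16 and 9.15 FPKM. The dLAM libraries were tightly grouped above the others (log2 fold change 0.45, SE 0.11, adjusted p = 0.015), and the call was lost without dLAM library 1 or 3 and in the 4 libraries low in Y-linked RNA (adjusted p = 0.069).

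Rab32, which acts on lysosome-related organelles and in defence against intracellular bacteria, was the lower member (chromosome 10, 10545002 to 10558265). It had 41.6, 36.2 and 37.7 FPKM in dLAM libraries against 55.3, 51.8 and 56.1 FPKM in Mono-MΦ libraries. The gap exceeded the spread within either group (log2 fold change -0.49, SE 0.09, adjusted p = 0.0067), and without any 1 library the adjusted p stayed at or under 0.033. Rab7, the main Rab of late endosomes and lysosomes, had 31.8, 29.9 and 34.7 FPKM against 45.5, 39.4 and 31.0 FPKM, so that its groups overlapped and it did not pass (adjusted p = 0.26). Mono-MΦ library 3 decides this: without it Rab7 passed as lower (adjusted p = 0.049). Rab39, linked to phagosome acidification, was at 3.16, 3.04 and 2.47 FPKM against 1.52, 2.25 and 0.949 FPKM and fell just short (adjusted p = 0.051), passing without Mono-MΦ library 2 (adjusted p = 0.015) and in the 4 libraries low in Y-linked RNA (adjusted p = 0.029). Rab9, which returns mannose 6-phosphate receptors to the Golgi, and Rab24, tied to autophagy, did not pass. Rab24 shares 62.4% of its exon bases with Prelid1 on the opposite strand, and the counting of strand is not given in the sources used here.

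Among early endosome members the 2 that passed were lower in dLAM libraries. All 7 were tested, none passed as higher, and their median log2 fold change was -0.02. The share called was 28.6%, near the 30.5% of all genes tested. Rab31, a Rab of the Rab5 family that runs between the Golgi and endosomes, had 30.0, 26.8 and 30.4 FPKM in dLAM libraries against 43.3, 43.5 and 36.5 FPKM in Mono-MΦ libraries. The groups did not overlap (log2 fold change -0.48, SE 0.11, adjusted p = 0.013), though the adjusted p was 0.055 without dLAM library 2 and 0.075 in the 4 libraries low in Y-linked RNA. Rab21, which moves integrins through early endosomes, had 34.1, 34.1 and 32.8 FPKM against 39.0, 47.1 and 46.6 FPKM. It was lower by a log2 fold change of -0.38 (SE 0.10, adjusted p = 0.027), and this call ended without any of 5 single libraries, Mono-MΦ library 1 being the exception, on the TPM scale (adjusted p = 0.063) and in the 4 libraries low in Y-linked RNA (adjusted p = 0.17).

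The 3 Rab5 genes, whose products define early endosomes and govern their fusion, did not pass. Rab5a stood at 26.3 ± 1.99 FPKM in dLAM and 26.1 ± 2.81 FPKM in Mono-MΦ libraries, and Rab5c, the most abundant of the 3, at 47.9 ± 1.74 and 40.9 ± 4.49 FPKM (SD, n = 3 each). Rab5c had each dLAM library above each Mono-MΦ library and an adjusted p of 0.15, and Rab5b had each below, with an adjusted p of 0.27. Rab20, which takes part in phagosome maturation and is induced by interferon gamma in macrophages, had 11.6, 14.6 and 11.6 FPKM against 11, 10.2 and 10.3 FPKM (adjusted p = 0.17). Rab22a stood at 4.76 ± 0.0856 in dLAM and 4.85 ± 0.414 FPKM in Mono-MΦ libraries (SD, n = 3 each).

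Of 9 recycling endosome members 5 were tested, and 1, Rab11b, was lower in dLAM libraries (20% called, against 30.5% of all genes tested). Rab11b, which returns endocytosed receptors to the surface, had 7.62, 6.04 and 6.47 FPKM in dLAM libraries against 10.0, 11.2 and 8.32 FPKM in Mono-MΦ libraries. Its groups did not overlap (log2 fold change -0.49, SE 0.14, adjusted p = 0.033), but the call was lost without any of 4 single libraries (dLAM 2 and 3 and Mono-MΦ 1 and 2), on the TPM scale (adjusted p = 0.075), with no filter (adjusted p = 0.053) and in the 4 libraries low in Y-linked RNA (adjusted p = 0.18). Its paralogue Rab11a stood at 13.2 ± 0.885 FPKM in dLAM and 11.8 ± 0.392 FPKM in Mono-MΦ libraries (SD, n = 3 each; adjusted p = 0.30). Rab4b, Rab14 and Rab35 had log2 fold changes of -0.00, -0.01 and 0.01 with standard errors of 0.11, 0.10 and 0.11. Rab4b shares 65% of its exon bases with Gm21983 on the same strand, which was listed at or under 0.0842 FPKM.

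The largest rise among tested Rab genes was in a Golgi and ER member that reached the filter only in dLAM libraries. Of 14 Golgi and ER members 10 were tested, 1 higher and 1 lower in dLAM libraries, with a median log2 fold change of -0.06. The share called was 20%, against 30.5% of all genes tested. Rab6b, the paralogue of Rab6a that is best known from neurons, had 1.56, 1.97 and 1.03 FPKM in dLAM libraries against 0.210, 0.0128 and 0.169 FPKM in Mono-MΦ libraries (chromosome 9, 103111787 to 103185276). These are low levels, at an estimated 116, 122 and 64.2 fragments in dLAM libraries and 14.5, 0.904 and 14.5 fragments in Mono-MΦ libraries. Rab6b met the limit of 1 FPKM in 3 libraries through the dLAM libraries alone, and dLAM library 3 only just reached it. Every dLAM library was far above every Mono-MΦ library, with a log2 fold change of 1.14 (SE 0.17, adjusted p = 0.0024). Neural and choroid plexus markers summed to between 7.66 and 14.7 FPKM in dLAM and between 6.65 and 8.37 FPKM in Mono-MΦ libraries, with 1 of 8 tested and not past the threshold, and Snap25 and Ttr listed at 0 in every Mono-MΦ library. The T cell list, which also moved with the groups, summed to between 204 and 258 FPKM against 6.2 to 35.1 FPKM. Its part in the level of Rab6b was not tested.

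Rab29, a Golgi and lysosome Rab that recruits the kinase Lrrk2, was lower. It had 5.13, 4.62 and 4.95 FPKM in dLAM libraries against 8.56, 6.28 and 8.38 FPKM in Mono-MΦ libraries. The groups did not overlap (log2 fold change -0.56, SE 0.14, adjusted p = 0.018), but the call was lost without any of 5 single libraries, Mono-MΦ library 2 being the exception (highest adjusted p = 0.074). Members of the ER to Golgi route were high and did not pass. Rab2a stood at 54.6 ± 0.770 FPKM in dLAM and 63.1 ± 0.731 FPKM in Mono-MΦ libraries, with no overlap (adjusted p = 0.10), and Rab1b at 52.3 ± 2.33 and 54.3 ± 5.77 FPKM (SD, n = 3 each; adjusted p = 0.78). Rab6a, which moves vesicles within and out of the Golgi, had 21.2, 22.7 and 22.7 FPKM against 25.9, 26.5 and 31.2 FPKM. It missed the threshold as deposited (adjusted p = 0.056) and passed as lower with median-of-ratios scaling (adjusted p = 0.036) and with quantile normalization (adjusted p = 0.048). It shares 19% of its exon bases with Mrpl48 on the opposite strand, as Rab20 does 25.6% with E230013L22Rik. Rab1a stood at 19.6 ± 1.79 FPKM in dLAM and 24.7 ± 3.09 FPKM in Mono-MΦ libraries (SD, n = 3 each; adjusted p = 0.092) and passed as lower without Mono-MΦ library 1 (adjusted p = 0.037). Rab19, found at the Golgi, stood at 6.01 ± 1.26 FPKM in dLAM and 4.07 ± 1.12 FPKM in Mono-MΦ libraries (SD, n = 3 each; adjusted p = 0.11). It passed as higher without Mono-MΦ library 2 (adjusted p = 0.034) and with a term for Y-linked RNA (adjusted p = 0.016). Rab18, of lipid droplets and the ER, and Rab33b, of autophagosome formation at the Golgi, did not pass and had overlapping groups. Rab43 varied widely, at 21.4, 8.21 and 26.7 FPKM in dLAM libraries and 13.8, 13.5 and 4.68 FPKM in Mono-MΦ libraries. It shares 75.4% of its exon bases with Gm45140 on the same strand, so its level is uncertain. Of 6 members with no compartment in the lists, Rab28 and Rab40c were tested and did not pass.

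The balance between paralogues of 1 subfamily was compared as the share of the first member in the summed FPKM of its subfamily, which no scaling of a library can change. Among 14 subfamilies 9 had no overlap between the groups, each with p = 0.10 by an exact two-sided permutation test, the smallest p that 3 against 3 libraries allow, and adjusted p = 0.16 over the 14. For single genes over all tested, 46.2% had no overlap. In Rab2, Rab4, Rab27 and the pair of Rab32 and Rab38, the minor partner was under the filter. Their shares differed by only -0.694, 3.483, -1.645 and -1.156 percentage points. Rab7 made up 74.8%, 73.8% and 79.4% of Rab7 and Rab7b together in dLAM libraries, against 88.6%, 84.0% and 85.6% in Mono-MΦ libraries. Every dLAM share was thus lower, by 10.0 percentage points in the means. Rab11a made up 66.3% ± 2.42 of the Rab11 pair in dLAM and 54.6% ± 3.75 in Mono-MΦ libraries (SD, n = 3 each). Rab8a made up 24.4% ± 1.39 of the Rab8 pair in dLAM and 29.5% ± 0.477 in Mono-MΦ libraries (SD, n = 3 each). In the Rab3 group, where Rab3a and Rab3d supply nearly all RNA, Rab3a held 36.5%, 29.4% and 46.9% in dLAM libraries against 23.3%, 16.9% and 16.0% in Mono-MΦ libraries. The Rab5 shares overlapped, with Rab5a at 29.5% ± 1.52 in dLAM and 31.1% ± 2.05 in Mono-MΦ libraries (SD, n = 3 each) and p = 0.40 by the same exact test.

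**Figure D3:**
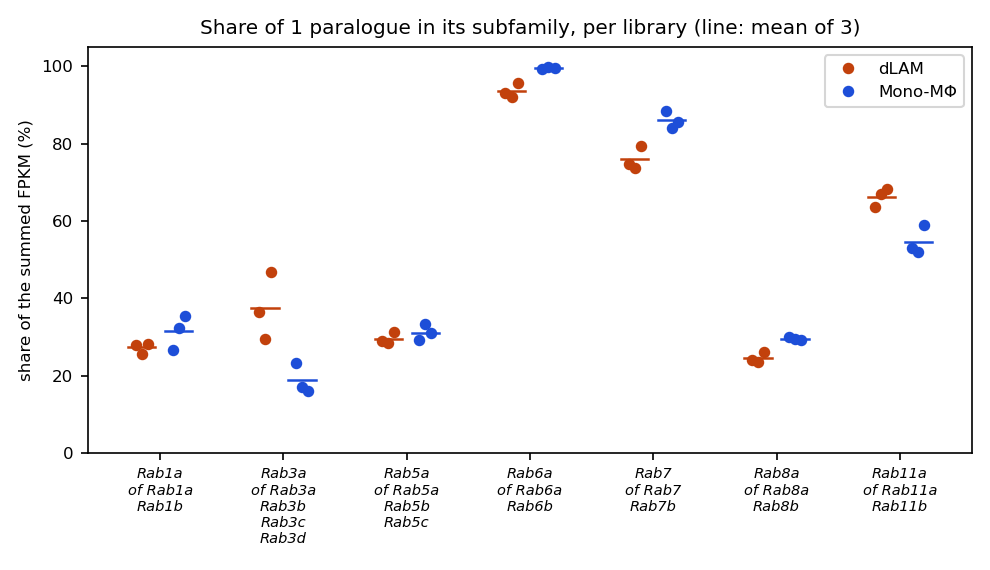
Share of the named paralogue in the summed FPKM of its subfamily, in percent, per library for 7 subfamilies, with dLAM libraries in red left of Mono-MΦ libraries in blue and a line at the mean of 3. Rab7 and Rab8a hold smaller and Rab3a and Rab11a larger shares in each dLAM library, while the Rab1a and Rab5a shares overlap.

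At the low end, 21 members stayed under the limit of 1 FPKM in 3 libraries and were not tested. Rab17, known from epithelial cells, was listed at 0 in every library. Of the other 20 members, 12 had each dLAM library above each Mono-MΦ library (Rab2b, Rab4a, Rab13, Rab15, Rab23, Rab26, Rab27b, Rab30, Rab34, Rab38, Rab39b and Rab42) and 1, Rab36, had each below. The groups overlapped for Rab3b, Rab3c, Rab9b, Rab25, Rab33a, Rab37 and Rab40b. An example is Rab13, which acts at tight junctions and in secretion, at 1.2, 0.99 and 0.925 FPKM in dLAM libraries against 0.381, 0.173 and 0.736 FPKM in Mono-MΦ libraries. Among the 10828 genes under the limit with a value above 0 somewhere, 21.1% had each dLAM library above and 3.5% each below. Rab36 was at 0.169, 0.237 and 0.295 FPKM in dLAM libraries against 1.21, 1.03 and 0.671 FPKM in Mono-MΦ libraries, and was lower when no filter was used (adjusted p = 0.016). Rab4a, Rab27b, Rab39b and Rab42 were listed at 0 in each Mono-MΦ library and above 0 in each dLAM library. Over all genes, 663 (1.91%) had that pattern and 27 had the opposite one.

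These low values rest on few fragments. Rab4a, a recycling Rab, was listed at 0.646, 0.204 and 0.364 FPKM in dLAM libraries, an estimated 16.8, 4.41 and 7.94 fragments. Rab27b, the second Rab27 of secretory granules, was listed at 0.173, 0.182 and 0.135 FPKM, an estimated 27.3, 23.9 and 17.9 fragments. With no filter Rab4a, Rab27b and Rab39b passed as higher (adjusted p = 0.031, 0.0042 and 0.025), so that 7 Rab genes were higher and 8 lower, where 13% of all genes tested without a filter were higher and 4.99% lower. Epithelial markers summed to between 26.9 and 31.6 FPKM in dLAM libraries against 1.74 to 2.92 FPKM in Mono-MΦ libraries. All 3 tested (Epcam, Krt18 and Cdh1) were higher, Krt18 not in the 4 libraries low in Y-linked RNA (adjusted p = 0.057). Epcam and Krt18 met the filter through dLAM libraries alone and so could only be higher there. Most of the dLAM sum was Cdh1, at 22.0, 21.0 and 21.9 FPKM. The keratin Krt8 had overlapping groups, and Sftpc was at 0 in every library. Krt19 and Cldn4 were at 0 in every Mono-MΦ library and at most at 0.173 and 0.0372 FPKM in dLAM libraries. Rab25, the epithelial member of the Rab11 group, was at 0.101, 0.0912 and 0.241 FPKM against 0.0546, 0.133 and 0.0659 FPKM, groups that overlapped.

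Genes that act on Rab proteins were mostly higher where they changed. Of 123 genes of this machinery 104 were tested, and 32 were higher and 6 lower in dLAM libraries, together 36.5% against 30.5% of all genes tested (19.9% higher and 10.6% lower), with a median log2 fold change of 0.20 against 0.06. Without dLAM library 2 there were 19 higher, without dLAM library 3 there were 20, and in the 4 libraries low in Y-linked RNA 19 were higher and 3 lower. Of 8 delivery factors, which attach lipid anchors or carry Rabs through the cytosol, 2 were higher (25% called, against 30.5% of all genes tested). Gdi2, the abundant GDP dissociation inhibitor, had 298, 263 and 289 FPKM in dLAM libraries against 194, 180 and 205 FPKM in Mono-MΦ libraries, groups that did not overlap (log2 fold change 0.55, SE 0.11, adjusted p = 0.0090). The call was lost in the 4 libraries low in Y-linked RNA (adjusted p = 0.081).

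Of 27 exchange factors 3 were higher and 1 was lower (14.8% called, against 30.5% of all genes tested). Rab3il1, an exchange factor for Rab8 and a partner of Rab3, showed the largest difference of the whole machinery. Its FPKM was 22.8, 24.5 and 17.9 in dLAM libraries against 2.75, 1.80 and 2.57 in Mono-MΦ libraries (log2 fold change 2.75, SE 0.16, adjusted p = 4.5e-05). Its Rab8 targets did not pass in either direction. Hps4, which forms with Hps1 the exchange factor of Rab32 and Rab38, was higher too, by a log2 fold change of 0.69. Dennd2a was lower, at 0.631, 0.873 and 0.772 FPKM in dLAM against 2.25, 2.55 and 2.0 FPKM in Mono-MΦ libraries. Mon1a, Mon1b and Ccz1, whose products activate Rab7, did not pass.

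GTPase-activating proteins were higher for 10 of 28 genes and lower for 3 (46.4% called, against 30.5% of all genes tested). Tbc1d4, known as AS160 and acting on Rab10 and other exocytic Rabs, had 4.27, 6.50 and 6.43 FPKM in dLAM libraries against 0.375, 0.267 and 0.729 FPKM in Mono-MΦ libraries (log2 fold change 2.20, SE 0.19, adjusted p = 0.00021). Tbc1d16, which acts on Rab4a, had 4.64, 4.28 and 3.74 FPKM against 0.324, 0.325 and 0.220 FPKM (log2 fold change 2.01, SE 0.13, adjusted p = 5.5e-05). Neither gene's groups came near each other. Tbc1d10c, known as carabin and found in lymphocytes, was higher by 1.35 (adjusted p = 0.019) but no longer passed when any 1 of the dLAM libraries was left out or in the 4 libraries low in Y-linked RNA (adjusted p = 0.059). The T cell markers named above were higher in the same libraries, and their part in the levels of Tbc1d4 and Tbc1d10c was not tested. Tbc1d2, which switches off Rab7, was the largest fall, at 2.88, 2.74 and 3.74 FPKM in dLAM against 6.0, 8.38 and 6.93 FPKM in Mono-MΦ libraries (log2 fold change -0.97, SE 0.16, adjusted p = 0.0029).

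Effectors were higher for 17 of 41 genes and lower for 2 (46.3% called, against 30.5% of all genes tested). Rilpl1, which binds Rab8 and Rab10 once Lrrk2 has phosphorylated them, had 2.96, 2.52 and 2.97 FPKM in dLAM libraries against 0.733, 0.368 and 0.751 FPKM in Mono-MΦ libraries (log2 fold change 1.25, SE 0.15, adjusted p = 0.00074). Sytl2, a Rab27 effector that links granules to the plasma membrane, had 1.37, 1.29 and 1.43 FPKM against 0.0401, 0.180 and 0.0968 FPKM (log2 fold change 1.10, SE 0.12, adjusted p = 0.00060). Sytl2 was thus higher in the libraries where Rab27a was lower. Unc13d, another Rab27 effector, did not pass, at 7.23 ± 0.336 FPKM in dLAM and 6.30 ± 0.479 FPKM in Mono-MΦ libraries (SD, n = 3 each). Of the Rab11 effectors Rab11fip3, Rab11fip4 and Rab11fip5 were higher, by log2 fold changes of 0.76, 0.68 and 0.99 (for Rab11fip4 not without dLAM library 1 or 3 or Mono-MΦ library 1 or 3), while Rab11fip1 and Rab11fip2 did not pass. Rabep1 and Rabep2, which bind Rab5, were higher by 0.67 and 0.51 (for Rabep2 not without dLAM library 2 or 3, nor in the 4 libraries low in Y-linked RNA, adjusted p = 0.071). Ehd1 and Micall1, which work together on recycling endosomes, were higher by 0.45 and 0.74. Of the Rab7 effectors in the HOPS complex, Vps39 was higher by 0.43, though it no longer passed when any single library other than Mono-MΦ library 2 was left out, with quantile normalization (adjusted p = 0.076) or in the 4 libraries low in Y-linked RNA (adjusted p = 0.060), and Vps11, Vps16, Vps18, Vps33a and Vps41 did not pass. Lrrk1, a kinase of Rab7, was higher by 0.76, a call lost in the 4 libraries low in Y-linked RNA (adjusted p = 0.068). Lrrk2, a kinase of Rab8, Rab10, Rab12 and Rab29, was lower (log2 fold change -0.78, adjusted p = 0.043), a call that ended without any of 4 single libraries (dLAM 1, 2 and 3 and Mono-MΦ 3), with no filter (adjusted p = 0.087) and in the 4 libraries low in Y-linked RNA (adjusted p = 0.11).

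**Figure D4:**
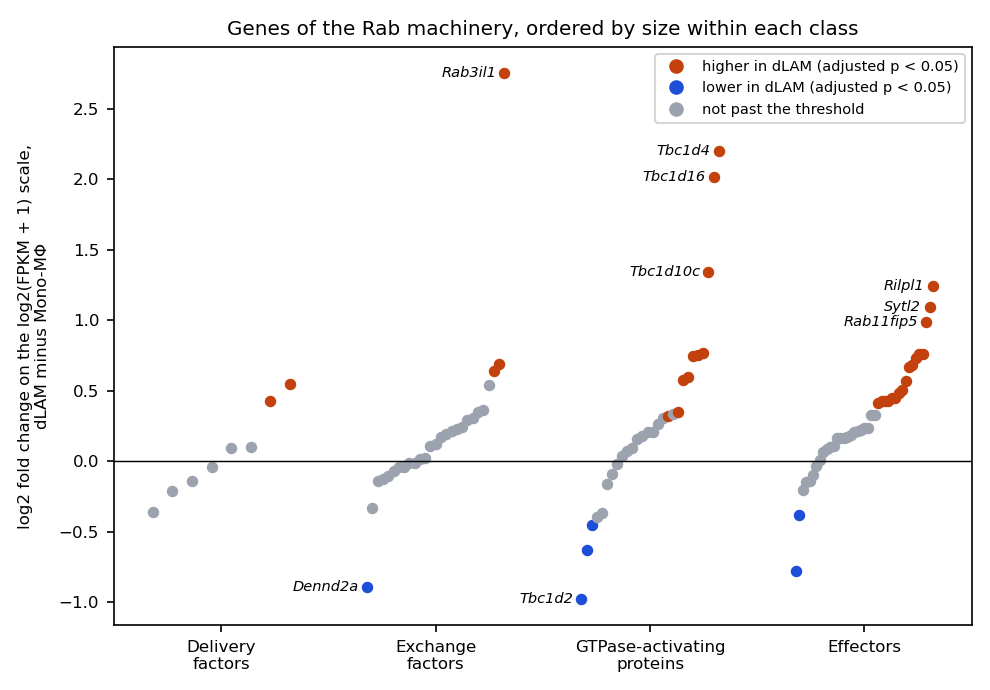
Difference in log2(FPKM + 1), dLAM minus Mono-MΦ, of the 104 tested genes of the Rab machinery, ordered by size within 4 classes. Red points are higher and blue points lower in dLAM libraries at an adjusted p under 0.05, and grey points did not pass. Rab3il1, Tbc1d4 and Tbc1d16 stand above 2, and Tbc1d2 and Dennd2a are the lowest points.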

How the data were processed

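RNA was sequenced from 6 libraries of sorted cells, 3 per group. The labels name no mouse for any of them, and p-values cover only the spread among these 6, part of which may be technical. Ddx3y and Xist differed between libraries within each group, but whether all libraries came from separate mice is not stated. The authors deposited 1 table of FPKM per gene, and per the submitters' processing notes FastQC, HISAT2, featureCounts and mm10 were used. Tool versions, gene annotation and strand setting were not given in the sources used here. Depth was estimated from the FPKM of 1 fragment and exon lengths (GENCODE M21, mm10, 94.3% of genes matched). Whole counts could not be recovered. FPKM depends on the total of a library, so a few abundant genes can shift all others.

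Values were tested as log2(FPKM + 1) with limma 3.58.1 (R 4.3.3, trended variance) over genes with at least 1 FPKM in at least 3 libraries, with Benjamini-Hochberg adjustment over all of them and a threshold of 0.05. Fold changes are dLAM minus Mono-MΦ on that scale, which understates changes of low genes. Rab6b, Tbc1d4, Tbc1d16, Rilpl1, Sytl2 and Rab11fip3 entered the test through dLAM libraries alone, and Dennd2a through Mono-MΦ libraries alone. Some of the cell type markers also entered through dLAM libraries alone. The steps were tested on simulated data. Replicate numbers did not pair the libraries. Alternatives were the pseudocount, filter, scaling, variance trend, a replicate block, Y-linked RNA and leaving out each library. Each Rab gene past the threshold, and each gene of the machinery past it with a log2 fold change beyond 1 in size, is named. Other genes of the machinery were named after their values were seen, and 1 that passed is not reported here by name. The Rab genes, compartments and lists were chosen with earlier results of these data known. The series' design speaks of more samples than the 6 analysed here.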

Additional observations from a re-analysis of the deposited data

How the results depend on the processing

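Of 190 values of the 12 called Rab genes under alternatives, 159 stayed past the threshold, 31 did not and none changed sign. Rab6b, Rab27a, Rab32 and Rab44 passed in every alternative that tested them, though Rab6b met the filter only through dLAM libraries and was not tested at 5 FPKM. Leaving out 1 library gave 2 to 6 higher and 4 to 7 lower Rab genes, 19 to 33 higher genes of the machinery, and 780 to 1220 lower genes over all. Without Mono-MΦ library 2 as many Rab genes were higher as lower, at 6 each. With a filter of 5 FPKM, 2168 genes passed, 1247 of them higher, with 16 of the machinery higher, and no Rab gene without a compartment was left. In the 4 libraries low in Y-linked RNA, 2260 genes passed (1480 higher, 780 lower), 4 Rab genes were lower, and 19 genes of the machinery were higher and 3 lower. With all 6 libraries and a term for Y-linked RNA, 3719 genes passed. There 5 Rab genes were higher and 8 lower, and 33 genes of the machinery were higher and 8 lower. With no filter 7 Rab genes were higher, and the median log2 fold change was 0.12 for secretory, 0.17 for late endosome and 0.18 for other members. Quantile normalization put the early endosome median at -0.14 and that of other members at -0.22. As shares of estimated fragments in place of FPKM, the difference in share was -1.32 percentage points for Rab2a, -7.79 for Rab6a, -13.5 for Rab7, -0.375 for Rab9 and -4.39 for Rab27a. Beyond the changes that follow from fewer genes or libraries, the cause was not tested.

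The replicate numbers did not pair the libraries (correlation of deviations 0.19, -0.15 and -0.09 for numbers 1 to 3), and not every library correlated best with its own number. The highest correlation, 0.39, was between dLAM library 3 and Mono-MΦ library 2, those with more Y-linked RNA. With the replicate block 5 Rab genes were higher and 6 lower (Rab11b and Rab21 no longer passed, adjusted p = 0.061 and 0.068), and 2859 genes passed over all. Depth limits Rab genes under 1 FPKM, such as Rab4a, with at most an estimated 16.8 fragments in a dLAM library.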
